A study of Homo sapiens with 12 samples.

Results

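The gene set described here consisted of 45 epithelial junction and polarity genes, out of 61541 genes in the count table. Its members were chosen by name: tight junction proteins, desmosome proteins and plakins, apical polarity proteins, membrane-bound proteases and their inhibitors, membrane traffic proteins, keratins and epithelial transcription factors. They were selected with earlier results of these data known, above all the differences between the libraries of the edited cells and of the control cells. Those differences are therefore given below as a description of the members and support nothing beyond it. All 45 symbols matched 1 row of the table, and each of the 45 passed the filter on low counts, together with 16768 genes in all. For 11 members (ST14, PRSS8, CLDN7, RAB25, RAB17, MAL2, LAD1, KDF1, ESPN, GRHL2 and OVOL1) fewer than 3 of the 6 knockout libraries reached the count minimum, so these passed through the control libraries and had to differ.

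The series measured RNA from A549, an established human lung adenocarcinoma line, in 12 libraries that form 4 groups of 3. All groups were A549 by label, received a guide by transduction, had no further treatment and were taken 14 days after transduction. Control cells carried a non-targeting guide (gNTC1) and knockout cells carried an edit of TYMS made with Cas9, labelled TS-KO. All knockout libraries carry the name of the same guide (gTYMS2). TYMS encodes thymidylate synthase, the enzyme that makes thymidylate for DNA synthesis. Each kind of cell was sequenced alone and from co-culture. The series text names parental A549 cells as those beside which the knockout cells regained proliferation, whereas the partner of the co-cultured control cells and any separation of partners before RNA was taken are not given in the sources used here. Nor do they say whether a group was 1 clone, or whether replicates came from separate cultures, so every p-value measures only the spread between these libraries.

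Epithelial cells are joined near their apical border by tight junctions, in which claudins, occludin and other membrane proteins seal the gap between neighbours and zonula occludens proteins tie them to actin. Below these lie adherens junctions and desmosomes, the latter anchoring keratin filaments to the membrane, and the Crumbs, Par and Scribble protein complexes mark the apical and basolateral sides. Transcription factors of the grainyhead-like, OVOL and ELF families keep this programme on, whereas ZEB and SNAI repressors bind short E-box sequences in its promoters and switch it off during epithelial-mesenchymal transition. A549 is known to express genes of both programmes.

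Library totals ranged from 14921371 to 35723762 counts, so that 1 CPM of an unscaled total stood for 14.9 to 35.7 counts. Levels below are CPM, counts per 1000000 of the TMM-scaled library size. The targeted gene TYMS stood at 90.3 to 101 CPM in the control libraries and at 10.7 to 21.4 CPM in the knockout libraries, lowest in co-culture. A549 is known to lack CDKN2A and MTAP through a homozygous deletion and to carry inactivated SMARCA4. The knockout libraries held 0 to 4 counts of CDKN2A and 7 to 21 of MTAP, whereas the libraries labelled control held 921 to 2127 and 801 to 1571. SMARCA4 stood at 10.9 to 13.5 CPM in the knockout libraries and at 159 to 202 CPM in the libraries labelled control. At these genes the 6 libraries labelled control thus go against the A549 label, and in every comparison of knockout with control below the edit and a difference between lines cannot be told apart. Below, control means the libraries so labelled. The contrast of co-cultured with lone knockout cells is between knockout libraries only, although the filter, the scaling and the estimate of spread came from all 12 libraries. Of the markers of other cell types, CD14 reached 6.07 CPM and COL1A1 24.1 CPM in their highest library; as sums, the 5 leukocyte, 6 fibroblast and 4 endothelial markers stayed at or below 7.84, 24.5 and 2.73 CPM in every library, and the 4 alveolar type 2 markers at or below 1.11 CPM.

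Most members were lower in the lone knockout libraries than in the libraries labelled control alone. At a Benjamini-Hochberg adjusted p under 0.05 from edgeR's quasi-likelihood test, 36 members were called lower, beside 28.6% of all genes tested, and 4 were called higher, beside 28.0%. The members' median log2 fold change was -2.77, and that of all genes tested was 0.09. GRHL2, the member at 0 counts in all 3 lone knockout libraries, lies below the members' median at its bound too (log2 -8.67). The median therefore cannot depend on its fitted value. In 36 members every lone knockout library lay below every lone control library, which held for 31.5% of all genes tested. The 4 higher members (CLDN1, TJP1, DSG2 and KRT7) were also separated without overlap, and OCLN, PATJ, PKP2, CDS1 and KRT18 overlapped and were not called. The share of all genes separated in the higher direction was not computed. In such bulk libraries fewer cells of a type and less RNA per cell cannot be told apart.

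In the lone comparison as reported, the decreases fell into separate size ranges. For 17 members the fitted difference was called and at least 16-fold (log2 -4.80 to -11.79), beside 3.19% of all genes tested: EPCAM, ST14, PRSS8, SPINT1, CLDN4, CLDN7, TJP3, MARVELD3, LSR, RAB25, RAB17, MAL2, LAD1, KDF1, ESPN, GRHL2 and OVOL1. For the other 19 called lower it ran from -0.47 to -3.34. No member lay between log2 -4.80 (CLDN4) and -3.34 (CGN). In the co-cultured comparison the ranges met: under the alternatives SPINT1 ran from -4.15 to -3.80 and CGN from -3.82 to -3.55. All 11 members that passed the filter through the control libraries, and so had to differ, are among the 17. The mean was under 1 CPM for 15 members in the lone knockout and for 14 of these in both knockout groups, TJP3 being the exception.

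Several of these differences changed in size with offsets for GC content. With an offset per library that removes its trend with the GC content of transcripts, 37 members were called lower and 5 higher in the lone knockout, beside 30.6% and 32.4% of all genes tested. The offsets were fitted to each library's deviations from the mean of all 12 libraries, not of its group. They therefore also take out any difference between groups that follows GC, whatever its source. For 18 called members (share over all genes not computed) the fold moved by over 1.5 times, for 17 to a value nearer 0. Among these, CLDN3 went from -3.02 to -1.88 on the log2 scale, PKP3 from -1.95 to -0.96 and LLGL2 from -2.05 to -1.25. CRB3, JUP, KRT19 and PPL stood at -2.30, -0.93, -2.03 and -2.71 with the offsets, LSR and SPINT1 at -4.19 and -5.24, and TJP3, LAD1 and ESPN at -6.10, -8.17 and -8.36. PRSS8, KDF1, ST14 and CLDN7, fitted from few knockout counts, stood at -8.51, -9.25, -10.52 and -10.88. KRT7 moved away from 0, to 2.42, and EVPL changed sign.

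**Figure D1:**
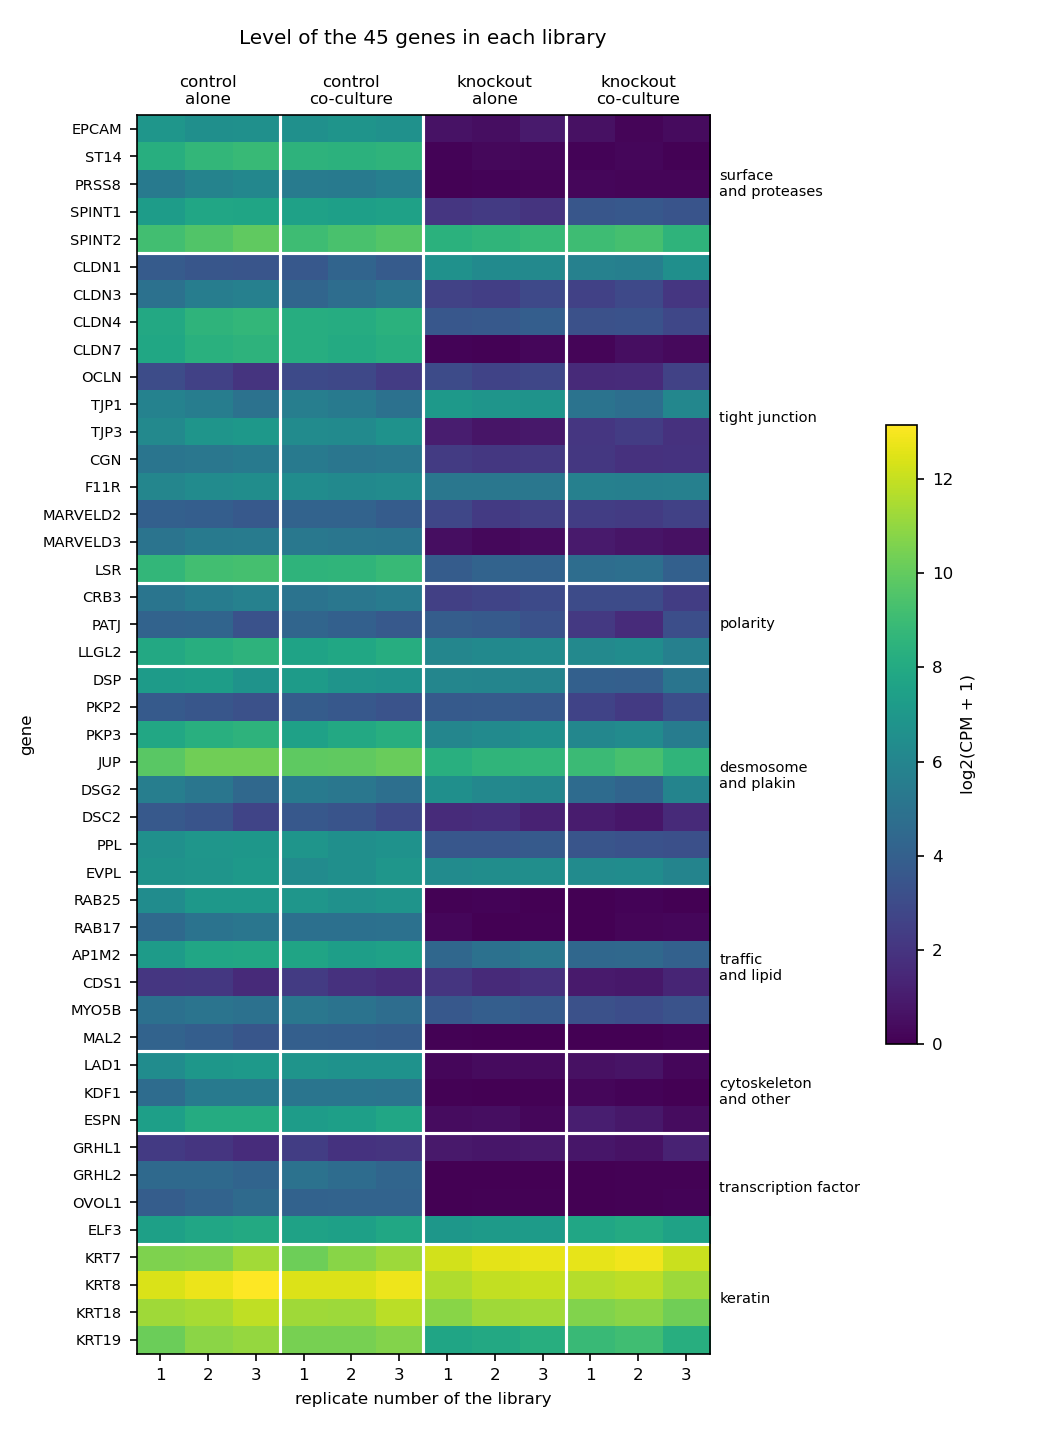
Level of each of the 45 genes (rows, grouped by role) in each of the 12 libraries (columns, replicate numbers within the 4 groups), as log2(CPM + 1); dark cells are near 0. Dark blocks in both knockout groups mark ST14, CLDN7, RAB25, GRHL2 and other members under 1 CPM, whereas CLDN1 and KRT7 are brighter there than in the control libraries.

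**Figure D2:**
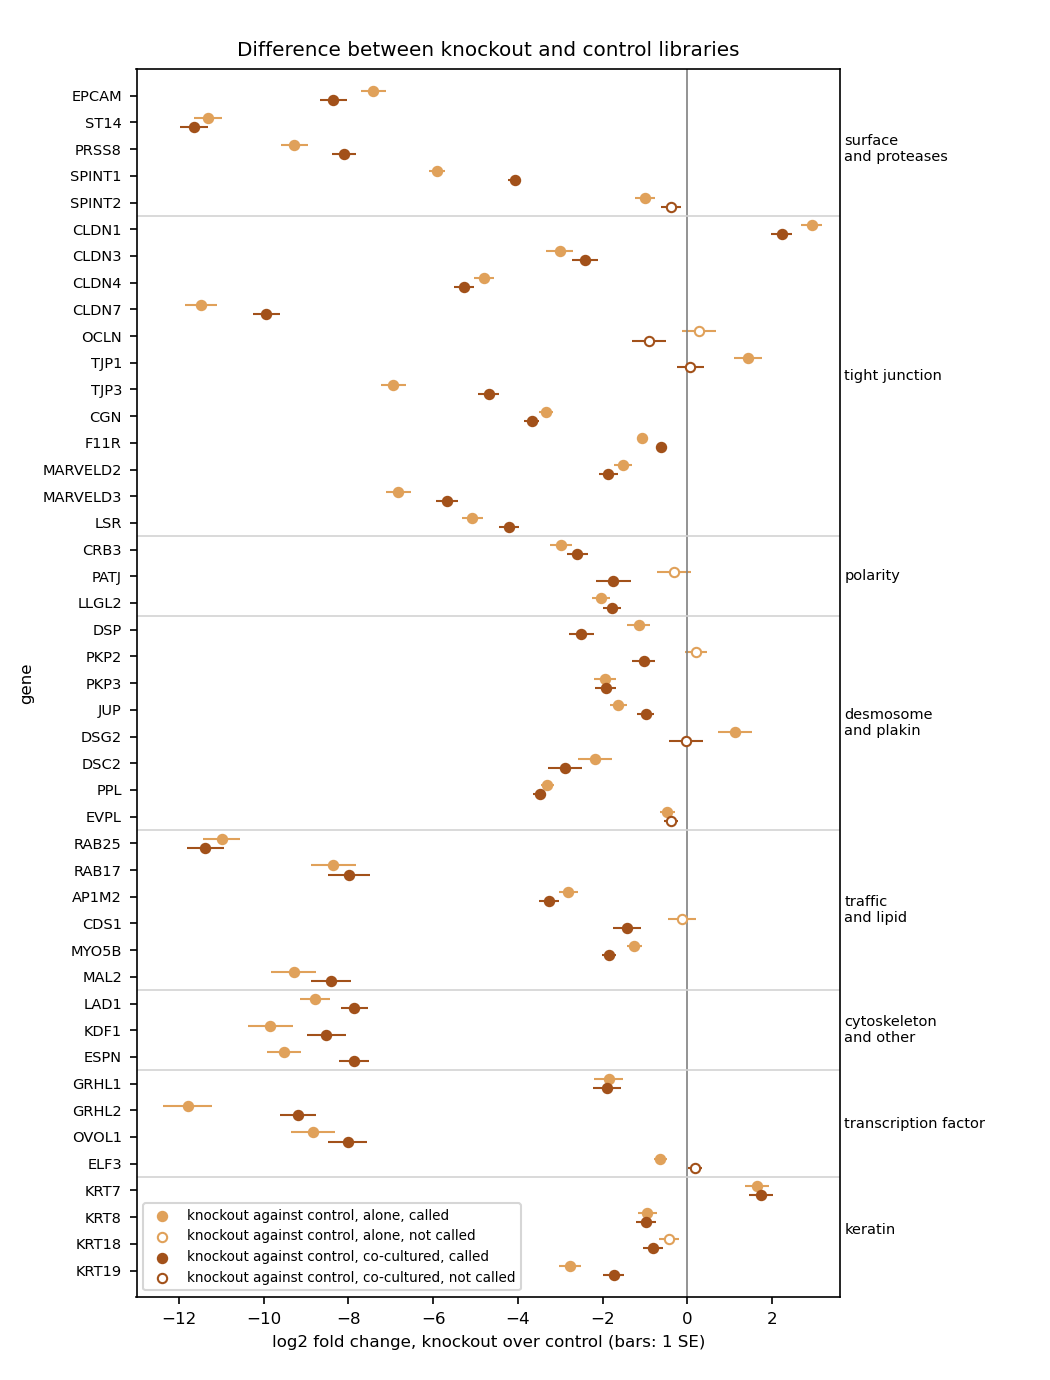
Log2 fold change of knockout over control for each gene (rows, grouped by role), with cells alone (light) and co-cultured (dark); bars are 1 standard error and open circles were not called at an adjusted p under 0.05. Of the 45 genes, 36 were called lower alone and 37 in co-culture; fitted values of genes near 0 counts, such as GRHL2, depend on the prior count.

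RefSeq promoter sequences on GRCh38.p14 were at hand for 27 of the 45 members, in 36 windows of 250 bases before an annotated transcription start, and are shown for 5 members because many of the genes moved together. The E-box CAGGTG, read on both strands, was present in 20 of the 36 windows (55.6%) and in at least 1 window of 19 of the 27 genes, against 17.5% of all 35116 such windows and 20.6% of all 27305 genes with a window. The members' windows were richer in GC, with a median of 66.8% against 58.0%, and the part of base composition in this share was not tested. The E-box stood before 14 of 21 genes called lower in the lone knockout and before 5 of 6 that were not called lower. The grainyhead-like motif AACCGGTT was in none of the 36 windows, and in 0.117% of all windows. Below, capitals mark the E-box on either strand, and each sequence runs 5′ to 3′ towards the start. CLDN7 (chr17:7262479-7262728, minus strand) carries 4, RAB25 (chr1:156060910-156061159, plus strand) carries 1 and CRB3 (chr19:6464021-6464270, plus strand) carries 5, and these 3 genes were lower in the knockout libraries. The window before another annotated start of CLDN7 (chr17:7263214-7263463), not shown, carries 0. DSG2 (chr18:31497927-31498176, plus strand), higher in the lone knockout, carries 2, and CLDN4 (chr7:73830746-73830995, plus strand), which was lower, carries none.
CLDN7: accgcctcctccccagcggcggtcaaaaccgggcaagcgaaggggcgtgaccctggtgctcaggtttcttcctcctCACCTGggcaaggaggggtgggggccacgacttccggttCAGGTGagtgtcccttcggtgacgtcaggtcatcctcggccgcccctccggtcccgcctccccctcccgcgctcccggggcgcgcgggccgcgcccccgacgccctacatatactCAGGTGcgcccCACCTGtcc
RAB25: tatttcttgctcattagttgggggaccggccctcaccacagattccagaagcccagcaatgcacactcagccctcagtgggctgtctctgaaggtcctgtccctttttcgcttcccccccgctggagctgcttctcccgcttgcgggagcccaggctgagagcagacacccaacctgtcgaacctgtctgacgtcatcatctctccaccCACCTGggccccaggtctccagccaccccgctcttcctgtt
CRB3: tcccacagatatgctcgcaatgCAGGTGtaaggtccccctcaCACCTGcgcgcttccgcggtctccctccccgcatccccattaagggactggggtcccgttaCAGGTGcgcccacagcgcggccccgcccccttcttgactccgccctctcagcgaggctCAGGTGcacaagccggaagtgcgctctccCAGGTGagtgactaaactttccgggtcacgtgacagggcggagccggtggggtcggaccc
DSG2: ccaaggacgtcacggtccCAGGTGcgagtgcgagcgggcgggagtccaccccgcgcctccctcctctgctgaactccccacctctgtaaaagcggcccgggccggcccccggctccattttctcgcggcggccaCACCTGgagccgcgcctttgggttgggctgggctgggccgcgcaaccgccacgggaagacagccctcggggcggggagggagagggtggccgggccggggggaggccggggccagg
CLDN4: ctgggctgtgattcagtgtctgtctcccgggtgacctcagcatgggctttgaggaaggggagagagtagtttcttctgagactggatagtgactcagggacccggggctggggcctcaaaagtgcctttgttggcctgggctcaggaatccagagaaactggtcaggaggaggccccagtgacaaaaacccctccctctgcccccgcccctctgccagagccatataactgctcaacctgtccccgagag
These matches are letters in a window, not sites of binding.

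Among the surface proteins and proteases, all 5 were called lower in the lone knockout. EPCAM, a homotypic adhesion molecule of epithelia, stood at 119, 94.4 and 97.8 CPM in the lone control libraries, at 0.550, 0.398 and 0.913 CPM in the lone knockout and at 0.517, 0.149 and 0.299 CPM in the co-cultured knockout. No knockout library reached 1 CPM, and pooled over libraries EPCAM was 173-fold lower (95% counting interval 125 to 247) alone. ST14 (chr11:130159562-130210376 on GRCh38) encodes matriptase, a membrane-anchored serine protease, and stood at 299, 422 and 466 CPM in lone control libraries, against 2, 4 and 3 counts in the 3 lone knockout libraries. It remained at 2, 6 and 1 counts in the co-cultured knockout, so both knockout groups lay at 0.0393% and 0.0280% of the matching control mean. PRSS8 encodes prostasin, a partner protease of matriptase, and stood at 42.0, 57.7 and 66.3 CPM in lone control libraries and 1, 2 and 2 counts in the lone knockout.

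SPINT1 and SPINT2 encode Kunitz-type inhibitors of these proteases. SPINT1 (chr15:40844018-40858207) stood at 155, 217 and 214 CPM in lone control libraries, at 3.17, 3.63 and 2.92 CPM in the lone knockout and at 10.6, 11.1 and 9.74 CPM in the co-cultured knockout. The 3 groups did not overlap, with a log2 fold change of -5.91 ± 0.18 (SE) for knockout against control alone. SPINT2 kept a much higher level, at 585, 772 and 994 CPM in lone control libraries and 342, 388 and 442 CPM in the lone knockout (-1.004 ± 0.23). In co-culture the knockout libraries held 534, 620.3 and 377 CPM, overlapping the control libraries at 542, 663 and 805 CPM, and SPINT2 was not called there. Without stated strand, reads of SPINT1 and of its antisense neighbour SPINT1-AS1 cannot be told apart.

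Of the 12 tight junction genes, 9 were called lower and 2 higher in the lone knockout, and the claudins did not move together. CLDN7 (chr17:7259903-7263983), a strand-forming claudin of many epithelia, stood at 224, 321 and 362 CPM in lone control libraries and at 2, 1 and 3 counts in the lone knockout. CLDN4 went from 245, 369.9 and 414 CPM to 11.1, 11.9 and 14.1 CPM and CLDN3 from 28.6, 47.2 and 52.3 CPM to 5.04, 4.43 and 6.39 CPM. CLDN1, another claudin, went the other way, from 12.5, 10.6 and 9.89 CPM in lone control libraries to 100.4, 78.6 and 72.3 CPM in the lone knockout (2.93 ± 0.26). It was also higher in co-culture, at 54.5, 50.6 and 91.7 CPM in knockout against 11.5, 17.9 and 12.5 CPM in control libraries, without overlap (2.23 ± 0.25). Exons of CLDN7 overlap those of ELP5 on the other strand, and without stated strand their reads cannot be told apart.

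The zonula occludens genes also split. TJP3, which encodes ZO-3, stood at 73.1, 116 and 129 CPM in lone control libraries, at 1.06, 0.697 and 0.791 CPM in the lone knockout and at 3.23, 4.12 and 2.72 CPM in the co-cultured knockout. TJP1, which encodes ZO-1, was higher in the lone knockout, at 137, 114 and 107 CPM against 55.3, 46.8 and 30.1 CPM in lone control libraries (1.44 ± 0.33). In co-culture the groups overlapped and TJP1 was not called: the knockout libraries held 31.1, 26.2 and 67.2 CPM and the control libraries 48.3, 41.6 and 28.98 CPM (0.07 ± 0.33). Cingulin (CGN), a cytoplasmic plaque protein, was lower in both settings (-3.34 ± 0.17 alone and -3.68 ± 0.17 co-cultured), whereas occludin (OCLN) was low and overlapped, at 3.01 to 7.38 CPM in lone control libraries and 5.33 to 7.15 CPM in the lone knockout.

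LSR and MARVELD2, proteins of tricellular contacts, the related MARVELD3 and F11R were lower. MARVELD3 fell from 31.8, 39.9 and 42.6 CPM in lone control libraries to 0.423, 0.199 and 0.365 CPM in the lone knockout, and LSR (angulin-1) from 412, 572 and 611 CPM to 13.4, 17.03 and 16.8 CPM. MARVELD2 (tricellulin) had a smaller difference, -1.52 ± 0.22 on the log2 scale, and so had F11R, the adhesion molecule JAM-A, at 65.4, 79.9 and 85.2 CPM in lone control libraries and 36.4, 36.3 and 36.4 CPM in the lone knockout (-1.08 ± 0.12). All 4 kept their lone libraries apart. Exons of MARVELD3 overlap PHLPP2 on the other strand.

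The polarity genes were CRB3 (the small Crumbs protein), PATJ (its scaffold partner) and LLGL2 (a basolateral protein of the Scribble group). CRB3 stood at 33.3, 45.1 and 53.6 CPM in lone control libraries and 4.57, 5.43 and 6.75 CPM in the lone knockout (-2.98 ± 0.26). LLGL2 stood at 247, 301 and 364 CPM and 64.3, 75.5 and 80.8 CPM (-2.05 ± 0.21), and neither gene's groups overlapped. PATJ overlapped, at 17.04, 17.6 and 8.96 CPM in lone control libraries and 13.8, 12.3 and 8.88 CPM in the lone knockout; with GC offsets per library it was called lower there too (adjusted p = 0.024). In co-culture PATJ was at 3.54, 2.09 and 7.87 CPM in the knockout against 18.3, 15.4 and 11.6 CPM in the control libraries, and all 3 polarity genes were called lower (-1.75 ± 0.42 for PATJ).

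Of the 8 desmosome and plakin genes, 6 were called lower and 1 higher in the lone knockout. Periplakin (PPL) fell from 95.4, 119 and 123 CPM to 11.1, 10.95 and 12.1 CPM, the largest difference of the class (-3.30 ± 0.15). Desmocollin-2 (DSC2) stood at 11.8, 9.67 and 5.41 CPM and 2.12, 2.34 and 1.40 CPM, and plakophilin-3 (PKP3) at 234, 312 and 359 CPM and 65.1, 78.7 and 91.5 CPM, in lone control and lone knockout. None of these overlapped between the lone groups. Plakoglobin (JUP), which serves adherens junctions too, was the most abundant of the class per length, and went from 892, 1257 and 1264 CPM to 316, 382 and 403 CPM (-1.63 ± 0.20). Envoplakin (EVPL) differed least among those called (-0.47 ± 0.17, adjusted p = 0.029), and with GC offsets it was called in the other direction (0.42, adjusted p = 0.0019). Its call was also lost without lone control replicate 2 or 3, without lone knockout replicate 1 or 2, and with a minimum mean of 5 CPM (adjusted p up to 0.09).

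Desmoplakin (DSP), the linker from desmosome to keratin, stood at 147, 158 and 106 CPM in lone control libraries, 64.6, 61.9 and 58.1 CPM in the lone knockout and 15.7, 14.7 and 33.1 CPM in the co-cultured knockout, 3 levels that did not overlap. Desmoglein-2 (DSG2), a desmosomal cadherin, was higher in the lone knockout, at 91.1, 70.0 and 63.0 CPM against 48.2, 34.6 and 20.9 CPM in lone control libraries (1.12 ± 0.41). Its adjusted p was 0.032, and the call was lost without lone control replicate 2 (adjusted p = 0.0803) or 3 (adjusted p = 0.138), or without lone knockout replicate 1 (adjusted p = 0.102) or 2 (adjusted p = 0.055), and with library size alone as the scaling (adjusted p = 0.0557). Plakophilin-2 (PKP2) overlapped between the lone groups, at 8.69 to 12.4 CPM and 11.99 to 12.5 CPM.

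Among the 6 genes of membrane traffic and lipid supply, 3 were nearly silent in the knockout libraries. RAB25 (chr1:156061160-156070514), a small GTPase of apical recycling, stood at 84.3, 128 and 127 CPM in lone control libraries and at 1, 2 and 0 counts in the lone knockout, 2279-fold lower (95% counting interval 779 to 11052). In co-culture the knockout libraries again held 0, 3 and 0 counts. RAB17, another epithelial GTPase, had 4, 0 and 1 counts in the lone knockout against 21.2, 31.0 and 34.8 CPM in lone control libraries, and MAL2, a protein of transcytosis, 1, 0 and 0 counts against 17.4, 14.0 and 10.5 CPM. The other members kept more: AP1M2, the epithelial subunit of the AP-1 sorting adaptor, stood at 147, 217 and 232 CPM and 20.4, 28.7 and 36.3 CPM (-2.81 ± 0.23). MYO5B, a motor that carries RAB11 and RAB25 vesicles, stood at 28.4, 32.8 and 28.9 CPM and 11.3, 14.2 and 12.4 CPM (-1.25 ± 0.17), and CDS1, an enzyme that makes CDP-diacylglycerol, overlapped at 1.91 to 3.33 and 1.99 to 3.05 CPM. With GC offsets CDS1 was called lower in the lone knockout (-0.62, adjusted p = 0.027).

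LAD1 (ladinin-1), KDF1 (keratinocyte differentiation factor 1) and ESPN (espin, an actin bundler of microvilli) were all near 0 in the knockout libraries. LAD1 stood at 82.7, 123 and 135 CPM in lone control libraries against 4, 6 and 5 counts in the lone knockout, and KDF1 at 24.5, 41.5 and 41.8 CPM against 1, 0 and 1 counts. ESPN stood at 168, 268 and 270.3 CPM against 8, 8 and 3 counts in the lone knockout and 27, 26 and 10 counts in the co-cultured knockout. The 3 genes were thus below 1% of the matching control mean in both knockout groups. Exons of LAD1 overlap TNNT2 and those of ESPN overlap TNFRSF25.

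All 4 transcription factors were called lower in the lone knockout, by very different amounts. GRHL2, a grainyhead-like factor that maintains junction genes, stood at 21.7, 21.3 and 18.1 CPM in lone control libraries and had 0 counts in each of the 3 lone knockout libraries. Against the 3 counts that a pooled count of 0 allows, it was at least 406-fold lower, and 0, 2 and 1 counts were found in the co-cultured knockout. OVOL1, a zinc finger repressor of mesenchymal genes, stood at 13.6, 17.4 and 22.4 CPM in lone control libraries and 0, 1 and 1 counts in the lone knockout, 541-fold lower (95% counting interval 149 to 4471). GRHL1 was low everywhere, at 3.66, 3.08 and 2.19 CPM and 0.847, 0.747 and 0.852 CPM. ELF3, an epithelial ETS factor, differed least: it stood at 179, 217 and 249 CPM in lone control libraries and 124, 143 and 148 CPM in the lone knockout (-0.64 ± 0.16), and in co-culture the knockout libraries at 222, 260.1 and 190.5 CPM overlapped the control libraries at 191, 179.9 and 226 CPM (0.17 ± 0.16, not called). With an offset per library for GC content ELF3 was called higher in co-culture (0.29, adjusted p = 0.0016).

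The keratins of simple epithelia, which form the intermediate filaments desmosomes attach to, carried most of the set's reads: the 45 genes took 1.88 ± 0.185% (SD, n = 3) of all counts in lone control libraries and 1.45 ± 0.138% in lone knockout libraries. KRT8, KRT18, KRT19 and KRT7 together took 1.29 ± 0.161% and 1.28 ± 0.139% of all counts, and their make-up differed. KRT8 stood at 5413, 6981 and 9109.5 CPM in lone control libraries and 3034, 3965 and 4180.0 CPM in the lone knockout (-0.94 ± 0.23). KRT19 stood at 1189.6, 1889 and 2142 CPM and 215, 249 and 301 CPM (-2.77 ± 0.26), and KRT7 at 1586, 1614 and 2531 CPM and 4835, 6367 and 6653 CPM (1.64 ± 0.28). KRT8 and KRT19 were thus lower and KRT7 higher in every lone knockout library than in any lone control library, whereas KRT18 overlapped, at 2517, 2797 and 3853 CPM and 1791, 2443 and 2554 CPM. KRT18 was called lower in co-culture, at 1628, 1884 and 1265 CPM in the knockout against 2510.8, 2406 and 3483 CPM (-0.81 ± 0.23).

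Per length (RPKM, here CPM per kilobase of exon), the order of the keratins changed between the groups. In lone control libraries the levels were 1042 ± 269.6 for KRT8, 949.5 ± 219 for KRT18, 745 ± 211 for KRT19 and 467 ± 131 for KRT7 (mean ± SD, n = 3). The ranges of mean ± SD of the first 3 overlapped. In the lone knockout KRT7 led with 1454 ± 239, followed by KRT18 with 703 ± 128, KRT8 with 542 ± 88.5 and KRT19 with 109 ± 18.6. KRT18 and KRT8 lay closer than their summed SDs there. All these SDs are between libraries, across which the keratins rose together. They therefore do not test the order within a library. No other member exceeded 230.3 RPKM (JUP) in lone control libraries or 75.2 RPKM (SPINT2) in the lone knockout. KRT8 and KRT18 overlap each other in the annotation and have processed copies elsewhere in the genome, so the authors' counting may have split or dropped their reads.

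**Figure D3:**
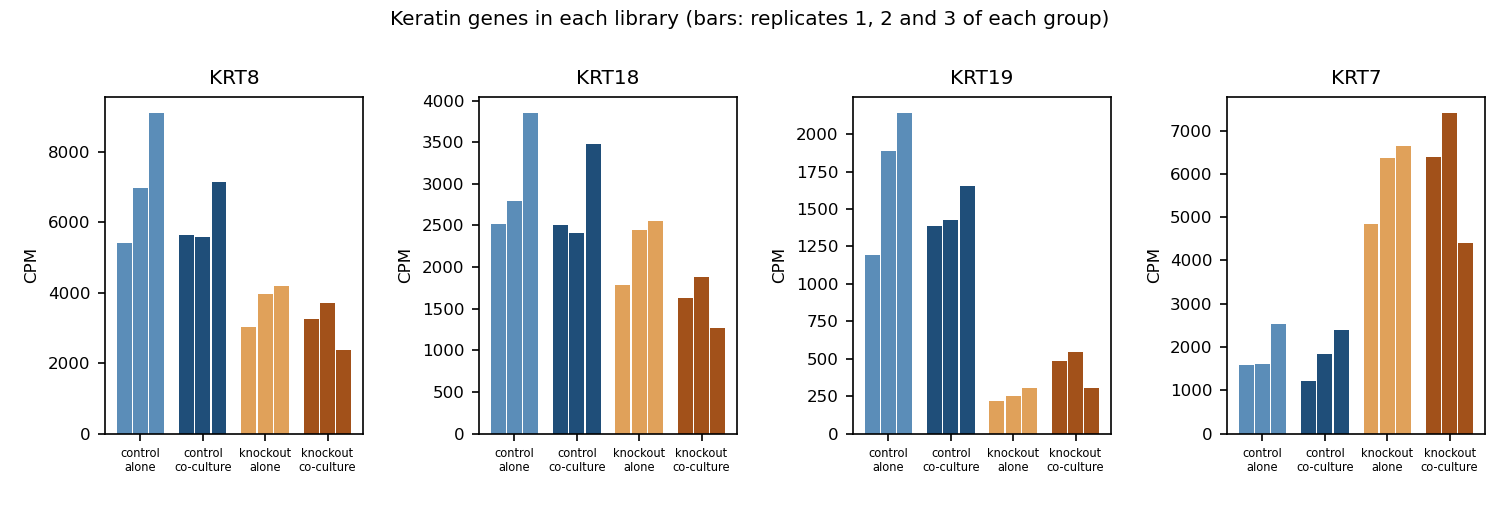
CPM of KRT8, KRT18, KRT19 and KRT7 in each library (bars, replicates 1 to 3 within each group; each axis starts at 0 and has its own range). KRT19 and KRT8 bars are shorter and KRT7 bars taller in both knockout groups, and co-cultured knockout replicate 3 has the shortest bar of its group for all 4 genes.

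Co-cultured knockout libraries were also compared with co-cultured control libraries, with the filter, scaling and spread again from all 12 libraries. In this comparison 37 members were called lower, beside 25.3% of all genes tested, and 2 (CLDN1 and KRT7) were called higher, beside 24.1%. The median was -2.50 for the members and -0.02 for all genes tested. The members called lower both alone and in co-culture numbered 33, and the share of all genes called lower in both was not computed. PATJ, PKP2, CDS1 and KRT18 were called lower in co-culture but not alone, SPINT2, EVPL and ELF3 alone but not in co-culture, and these are statements of calls, not of a tested difference. With GC offsets SPINT2 (-0.29, adjusted p = 0.049) and OCLN (-0.88, adjusted p = 0.0023) were called lower in co-culture too. As these members were selected with such differences known, the counts describe the set only.

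Co-culture itself was compared within the knockout cells. In co-cultured against lone knockout libraries 4 members were called higher, beside 5.97% of all genes tested, and 5 lower, beside 5.4%. The members' median log2 fold change was -0.14, against 0.01 over all genes tested; at an unadjusted p under 0.05, 22 members passed, as did 5053 of all genes tested. SPINT1, TJP3, F11R and ELF3 rose, and TJP1, DSP, PKP2, CDS1 and PATJ fell.

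SPINT1 rose 3.23-fold, from 3.24 ± 0.362 CPM to 10.5 ± 0.699 CPM (SD, n = 3 each), with every co-cultured library above every lone one (log2 1.69 ± 0.16, adjusted p = 6.9e-05). TJP3 rose from 0.849 ± 0.187 CPM to 3.36 ± 0.704 CPM (1.97 ± 0.30, adjusted p = 0.0015), also without overlap. Both remained far below the control libraries, at 5.91% and 3.84% of the co-cultured control mean, having been at 1.66% and 0.801% alone. F11R stood at 52.5, 50.5 and 51.2 CPM in co-culture against 36.4, 36.3 and 36.4 CPM alone (0.50 ± 0.12, adjusted p = 0.023), and ELF3 went from 138 ± 12.4 CPM to 224 ± 34.9 CPM (0.70 ± 0.16, adjusted p = 0.019). ELF3 thereby reached 113% of the co-cultured control mean. Markers of other cell types moved in the same libraries: the summed leukocyte markers stood at 1.74 to 1.86 CPM in lone and 5.34 to 7.84 CPM in co-cultured knockout libraries, and the fibroblast markers at 21.8 to 24.5 CPM and 12.8 to 16.7 CPM. Of the 5 leukocyte markers, CD14 and CD68 were tested and both were called higher (1.91 ± 0.35 and 1.73 ± 0.33), while PTPRC had 0, 1 and 0, CD3E 0, 0 and 0 and MS4A1 0, 0 and 0 counts in co-culture. Their part in the differences with co-culture was not tested.

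Among the members that fell, DSP went from 61.5 ± 3.24 CPM to 21.1 ± 10.3 CPM (log2 -1.54 ± 0.28, adjusted p = 0.0047) and TJP1 from 119 ± 15.5 CPM to 41.5 ± 22.4 CPM (-1.52 ± 0.33, adjusted p = 0.013). In both genes every co-cultured library was below every lone one, with co-cultured replicate 3 nearest to the lone libraries. PKP2 stood at 5.17, 3.67 and 7.72 CPM in co-culture against 12.2, 12.5 and 11.99 CPM alone (-1.15 ± 0.26, adjusted p = 0.017). CDS1, at 0.949, 0.775 and 1.53 against 3.05, 1.99 and 2.56 CPM (-1.23 ± 0.34, adjusted p = 0.038) and PATJ (-1.38 ± 0.42, adjusted p = 0.0496) were nearest the threshold, and all 5 again had replicate 3 as the highest co-cultured library. KRT19, at 486, 546 and 305 CPM in co-culture against 215, 249 and 301 CPM alone, missed the threshold (adjusted p = 0.052), as did MYO5B, MARVELD3 and CLDN4 (adjusted p = 0.056, 0.061 and 0.067). These 4 passed it under some alternatives, with adjusted p down to 1.3e-04 for KRT19, 0.024 for MYO5B, 0.016 for MARVELD3 and 5.2e-05 for CLDN4, with KRT19 and MARVELD3 higher and MYO5B and CLDN4 lower in co-culture.

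Of the members under 1 CPM in the lone knockout, TJP3 was called higher in co-culture. ESPN, LAD1 and MARVELD3 were called higher only under alternatives, among them without co-cultured replicate 3 (adjusted p = 0.016, 0.046 and 0.016). Others stayed nearly silent in co-culture. ST14 had 2, 6 and 1 counts in the 3 co-cultured knockout libraries, CLDN7 3, 14 and 7, RAB25 0, 3 and 0, MAL2 0, 1 and 2 and OVOL1 0, 2 and 3. Control libraries held 4818 to 9080 counts of ST14 and 3609 to 7311 of CLDN7. At these genes no library of the co-cultured knockout approached a control library. CDKN2A, at 0, 4 and 0 counts, and SMARCA4, at 13.02, 10.9 and 12.9 CPM, likewise stayed at the levels of the lone knockout.

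**Figure D4:**
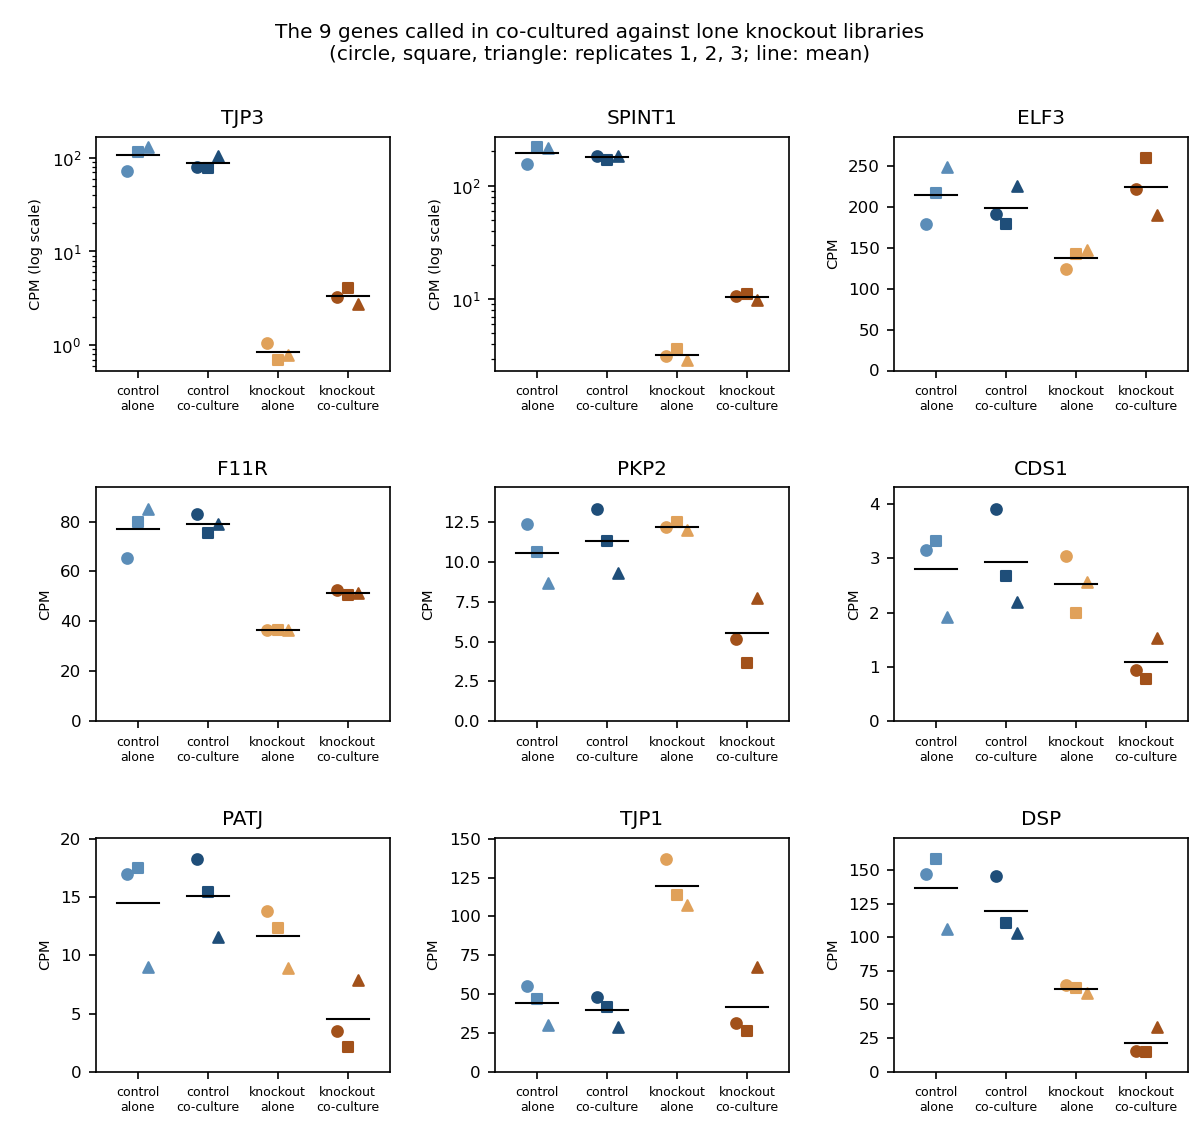
CPM of the 9 genes called in co-cultured against lone knockout, in each library of the 4 groups (symbols mark replicates, lines the means; TJP3 and SPINT1 on log axes, the others on linear axes from 0). TJP3 and SPINT1 rise in co-culture but stay far below the control libraries, and for the 5 genes that fall co-cultured knockout replicate 3 is the highest of its group.

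These counts moved with single libraries. Co-cultured knockout replicate 3 lay farthest from its group's median for 30 of the 45 members and for 63.3% of all genes tested. Its deviations from the group mean fell with the GC content of the transcripts (Spearman rho -0.76 over 16505 genes of 1 library, a description), whereas those of replicates 1 and 2 rose with it (0.35 and 0.74). Without replicate 3, 10 members were called higher and 10 lower, beside 12.2% and 21.2% of all genes tested. All 9 above were among them, and KRT19, JUP, LSR, LAD1, ESPN and MARVELD3 joined the higher ones. Without co-cultured replicate 1, only SPINT1, TJP3 and DSP were called, beside 2.37% higher and 0.759% lower of all genes tested. Leaving out any other co-cultured or lone knockout replicate gave 2 to 3 higher and 1 to 3 lower. Of all genes tested, 2.44% to 3.37% were called higher and 1.06% to 2.54% lower in these fits. SPINT1, TJP3 and DSP were the members called in co-cultured against lone knockout under every alternative run. Without co-cultured replicate 1 DSP stood at -1.37 ± 0.31 and, without replicate 3, at -2.02 ± 0.20 on the log2 scale. PATJ, too, lay farther from 0 without replicate 3, at -2.07 ± 0.35 against the lone knockout and -2.44 against the co-cultured control.

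The members called lower in co-culture had transcripts of 42.0% to 47.9% GC, while SPINT1, TJP3 and ELF3 lay at 60.4%, 63.2% and 56.0%, and F11R at 47.6%. Over all genes with a GC value the difference also rose with GC: the median log2 fold change was -0.49 in the lowest of 20 bins and 0.23 in the bin at 63.1%. With an offset per library that removes its trend with GC, all 9 members were still called in the same direction: SPINT1 stood at 1.46 ± 0.15, TJP3 at 1.72 ± 0.21, DSP at -1.51 ± 0.23 and TJP1 at -1.31 ± 0.20. Under that setting 7 members were called higher and 16 lower, beside 14.97% and 14.2% of all genes tested, KRT19 and JUP among the former and KRT8, KRT18 and PPL among the latter.

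**Figure D5:**
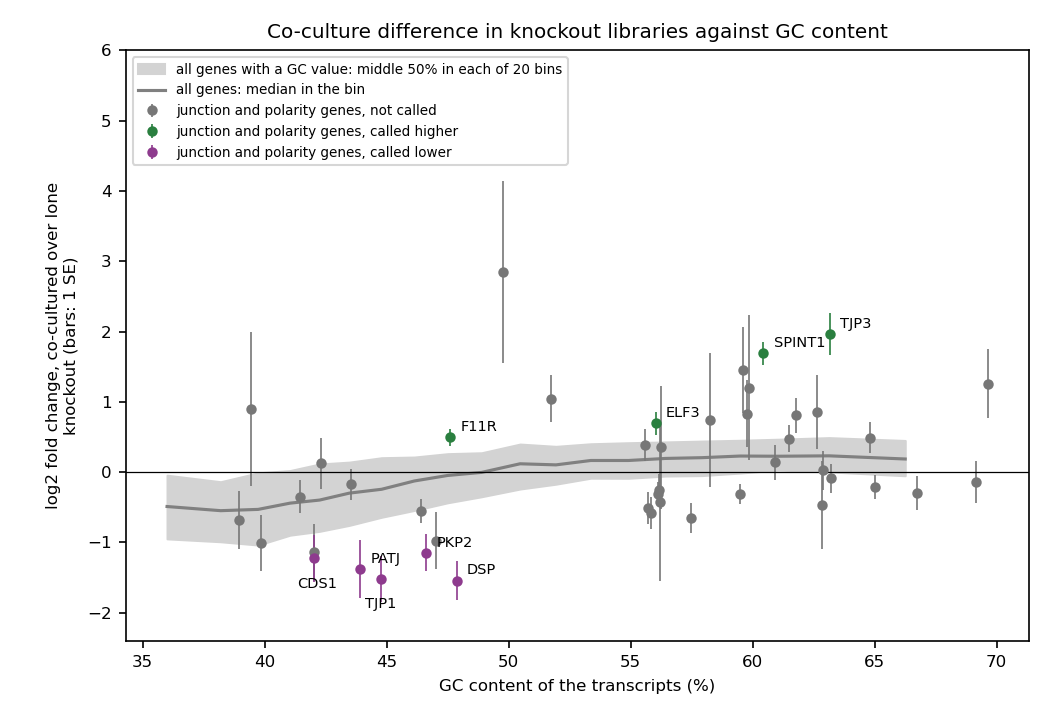
Log2 fold change of co-cultured over lone knockout (bars 1 SE) against the GC content of the transcripts for the 45 genes; the grey band and line give the middle 50% and the median of all genes tested with a GC value, in 20 bins. The 5 genes called lower lie below 50% GC and beneath the band; the point near log2 2.85 with the widest upper bar is GRHL2, fitted from 3 counts.

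In the control cells no member was called between co-culture and culture alone by edgeR's test (higher 0.0% and lower 0.0% of all genes tested), and none by DESeq2. At an unadjusted p under 0.05, 1 member passed, CLDN3, which stood at 18.7, 24.8 and 32.6 CPM in co-culture and 28.6, 47.2 and 52.3 CPM alone, as did 540 of all genes tested. The test of the difference between the co-culture responses of knockout and control cells called 2 members higher, beside 1.51%, and 0 lower, beside 0.286%, of all genes tested. These were SPINT1 (1.83 ± 0.22, adjusted p = 0.0011) and TJP3 (2.25 ± 0.37, adjusted p = 0.0077). SPINT1 had 182, 169 and 182 CPM in the co-cultured control against 155, 217 and 214 CPM alone. At an unadjusted p under 0.05, 16 members passed this test, as did 3135 of all genes tested. DESeq2 called 4 members higher and 3 lower, beside 3.39% and 1.84% of all genes tested.

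Other genes of the same structures, listed beside the members, were called in both directions. Of 80 such genes 65 were tested, and 24 (36.9%) were called higher and 25 (38.5%) lower in lone knockout libraries, beside 28.0% and 28.6% of all genes tested. The median of these 65 was -0.03 on the log2 scale, against -2.77 for the members, which were selected with that difference known. Among 14 other tight junction genes tested 5 were higher and 3 lower: JAM3, a junctional adhesion molecule, stood at 3.04 ± 0.33, the cingulin relative CGNL1 at 1.51 ± 0.27 and ILDR1 (angulin-2) had 1, 0 and 0 counts in the lone knockout against 47, 62 and 58 in lone control libraries. Of 17 other polarity genes 8 were higher (PARD3B, 2.43 ± 0.37) and 8 lower (PARD6G, -1.39 ± 0.16). The 3 other desmosome genes tested were all higher (DSC3, PKP4 and PERP), and of 11 other keratins 6 were lower and 1, KRT80, was higher.

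At the adherens junction, 3 of 11 genes were higher and 4 lower. CDH1, which encodes E-cadherin, stood at 62.0, 60.1 and 45.4 CPM in lone control libraries and 19.01, 18.4 and 15.1 CPM in the lone knockout (-1.67 ± 0.19), and CDH3 (P-cadherin) at 199.9, 263 and 279 CPM and 1.35, 1.24 and 1.16 CPM. NECTIN4 was higher, 4.21 ± 0.30. The splicing regulators ESRP1 and ESRP2 had 3, 1 and 1 and 5, 4 and 6 counts in the lone knockout against 31.0 to 43.7 and 40.8 to 55.4 CPM in lone control libraries, whereas GRHL3, a relative of GRHL2, was higher (3.23 ± 0.31). Of the 8 mesenchymal factors and markers tested 6 were higher and 1 lower, beside 28.0% and 28.6% of all genes tested. Log2 fold changes of the 8 ran from -2.08, for the lower one, to 3.84. VIM, FN1 and CDH2 (vimentin, fibronectin and N-cadherin), the 3 with the smallest p, stood at 2.35 ± 0.12, 3.44 ± 0.20 and 2.96 ± 0.27. Values of the others are not given here. Within the knockout cells 2 of the 8 were called lower in co-culture and 0 higher, beside 5.40% and 5.97% of all genes tested. These were VIM and CDH2, at -0.40 ± 0.12 and -0.97 ± 0.24 (adjusted p = 0.045 and 0.027). The other 6 were not called, and the 8 values ran from -1.31 to 0.54, 2 of them positive.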

How the data were processed

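The authors deposited a table of raw read counts per Ensembl gene for 12 libraries, used as deposited. Per the submitters' processing notes, STAR 2.7.9a, featureCounts, FastQC, R 4.2.1, DESeq2 1.36.0 and GRCh38/hg38 were used. The annotation and the strand setting are not given in the sources used here. Library preparation was with NEBNext Ultra RNA from total RNA, per the labels. Libraries were matched to groups by title. Here edgeR 4.0.16 (R 4.3.3) was run with TMM scaling, filterByExpr (minimum count 10), 1 mean per group over all 12 libraries and robust quasi-likelihood tests, with Benjamini-Hochberg adjustment over 16768 genes; SEs were derived from the test's F. CPM use TMM-scaled library sizes. Positions, exon lengths and GC content come from GENCODE 29 on GRCh38.

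The members, lists and named genes were chosen with earlier results of these data known. Values in every library are given, per role class, for up to 3 members with the largest difference in knockout against control alone and averaging 5 CPM or more in whichever group was higher, for up to 2 more by the same rule in co-cultured against lone knockout, and for members called opposite to most. CDS1, CGN, CLDN3, CLDN4, EVPL, F11R, GRHL1, JUP, LSR and MARVELD2 fall outside this rule and were described after their values were seen. Of genes that are no member, TYMS, CDKN2A, MTAP, SMARCA4 and up to 3 per list by smallest p are named. Alternatives were other scalings, filters, DESeq2 1.42.0, GC offsets, a replicate block and leaving out each library. Biological variation was 22.1%. Replicates differed by more than counting noise (chi-square per gene 8.77 to 130.4). Counting intervals are exact at 95%, and they and the floor of 3 counts for a count of 0 cover counting error only. On simulated counts for the lone comparison (16273 genes, 200 changed), 100% of genes changed by log2 -4, 95% by -2 and 50% by -1 were recovered, and 11 of 16073 unchanged genes were called. The simulation gave all groups a common mean per gene, changed few genes and had no GC trend. Its rates therefore need not hold for these data.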

Additional observations from a re-analysis of the deposited data

Results flagged for a closer look

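The co-culture response differed between knockout and control cells at 2 members, by edgeR's test of the difference itself. For SPINT1 it was 1.83 ± 0.22 (SE) on the log2 scale: all 3 co-cultured knockout libraries lay above all 3 lone ones, and the control groups overlapped. For TJP3 it was 2.25 ± 0.37, with the knockout groups again separated and the control groups overlapping. Both calls were kept under all alternatives run (adjusted p 5.6e-09 to 0.0073 for SPINT1 and 1.1e-09 to 0.04 for TJP3). At the lone knockout level of 0.849 ± 0.187 CPM, TJP3 rested on 25, 14 and 13 counts. The test compares folds, and in the lone knockout SPINT1 and TJP3 stood at 1.66% and 0.801% of the lone control mean. The same gain in CPM would be a far smaller fold in control cells. The edit and a difference between lines cannot be told apart here either, and the partner of the control cells is not given. The part of the co-culture partner's RNA was not tested.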

How the results depend on the processing

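Of 1580 values of single members recomputed under alternatives, 1480 kept their direction and their side of the threshold, 47 lost the call, 34 gained one and 19 changed sign. These covered every member only in both comparisons of knockout with control. In co-cultured against lone knockout they covered the called members, KRT19, MYO5B, MARVELD3 and CLDN4, so the share kept does not describe that comparison. Calls there were kept under 6 of 14 alternatives for CDS1 up to all 15 for SPINT1, TJP3 and DSP. Among these values the sign changed for 6 members. In the lone comparison OCLN stood at -0.24 with GC offsets, -0.24 with these and the block and -0.023 to 0.64 without 1 library (lowest without lone control replicate 3), PKP2 at -0.042 and -0.039, and EVPL, called in both directions, at 0.42 and 0.42. CDS1 there stood at 0.0076 with library size alone and -0.38 to 0.0048 without 1 library. In the co-cultured comparison EVPL stood at 0.021 with GC offsets and 0.021 with the block, TJP1 ran from -0.46 to 0.29 without 1 library (lowest without knockout replicate 3), and DSG2, -0.045 as reported, stood at 0.039 with library size alone, 0.022 with no filter, 0.051 at a mean of 5 CPM and -0.76 to 0.25 without 1 library, being called lower without knockout replicate 3. The counts of members called lower in knockout against control kept within 1.5 times of the main ones. The median alone was -2.30 with GC offsets and -2.30 with the block added, and ran from -2.99 to -2.62 without 1 library (lowest without lone control replicate 1). The counts in co-cultured against lone knockout, 4 higher and 5 lower, depended on the setting. Members called higher numbered 9 with no filter, 7 with GC offsets, 7 with DESeq2, 2 with only the groups compared, 2 at a 2-fold minimum, and 2 to 10 without 1 library; the share of all genes moved too, from 5.97% to 4.42%, 14.97%, 9.58% and 3.02% under the first 4. Those called lower numbered 16 with GC offsets, 15 with these and the block, 8 with DESeq2, 1 with only the groups compared, and 1 to 10 without 1 library, against 5.40% of all genes as reported and 14.2%, 11.9%, 10.4% and 1.20% under the first 4. For the difference between the responses, 2 higher and 0 lower became 6 and 4 with no filter, 5 and 7 with GC offsets, 4 and 4 with the block added, 4 and 3 with DESeq2, and 2 to 8 and 0 to 8 without 1 library. Shares of all genes moved too, from 1.51% and 0.286% to 1.92% and 1.59%, 4.95% and 3.46%, 3.30% and 1.90%, and 3.39% and 1.84% under the first 4. Without co-cultured knockout replicate 3 they were 7.05% and 14.2%. The members' median for this difference was -0.14 with GC offsets. The cause of these changes was not tested. Deviations of same-numbered libraries from their group means correlated at -0.60 to 0.49, and unlike between groups. Lone control with lone knockout stood at 0.49, -0.024 and 0.38 for replicates 1, 2 and 3. Lone control with co-cultured knockout stood at -0.23, 0.14 and -0.60. The labels do not say whether shared numbers mark shared batches. With the number as a replicate block, 3 members were called higher and 3 lower in co-cultured against lone knockout, beside 3.91% and 2.53% of all genes tested. Depth limits the members under 1 CPM: fitted folds of RAB25, RAB17, MAL2, OVOL1, ST14, KDF1 and GRHL2 moved by over 1.5 times without 1 knockout library.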
